A study of Homo sapiens with 40 samples.

Results

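The BCL2 family was followed here by the RNA of 10 of its genes, taken by name from the raw count table of 58395 genes. BCL2, BCL2L1 and MCL1 were grouped as pro-survival members, BCL2L11, BBC3, PMAIP1, BID and BAD as BH3-only members, and BAX and BAK1 as effectors. All 10 were among the 28922 genes that held at least 10 counts over all libraries and were tested. The RNA came from HEK293A cells, a line of human embryonic kidney origin, either wild-type (WT) or knocked out for PARP1 (PARP1-KO, which the labels also call a knockdown). The PARP1-KO cells are 1 line made with CRISPR/Cas9, so every genotype difference is that of a single clone against its parent, and other changes in that clone cannot be told apart from the loss of PARP1. Both genotypes were left untreated or were given for 5 to 5.5 h 0.1% DMSO, the TOP1 poison topotecan (Tpc), the TDP1 inhibitor OL9-119 at 5 μM, or Tpc with OL9-119, each agent in 0.1% DMSO. Tpc was dosed at 100 nM in WT and at 50 nM in PARP1-KO cells, so a difference in the response to Tpc between genotypes is also one between doses. Each of the 10 groups had 4 libraries of poly(A) RNA. The labels number these as biological replicates and the study's text calls them technical, so the p-values measure the spread between these libraries only.

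Proteins of this family decide at the outer membrane of the mitochondrion whether a cell begins apoptosis. The effectors BAX and BAK1 form the pores that release cytochrome c, the pro-survival members hold the effectors and the BH3-only members in check, and the BH3-only members are induced or modified by stress and either occupy the pro-survival members or activate the effectors. MCL1 and the product of PMAIP1 are short-lived proteins that depend on continued transcription, whereas BAD, BID, BAX and BAK1 are controlled largely after translation, which RNA counts do not show. HEK293 lines carry the adenoviral E1 genes, whose E1B products include a BCL2-like survival protein.

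Depth ran from 3455043 to 20379777 counts per library. After thinning of every library to the smallest, 8 WT libraries showed 15520 to 16932 genes, against 18124 to 20615 in the other 12 WT libraries and 17960 to 21602 in the PARP1-KO libraries. Among the latter, untreated replicate 1 and Tpc replicate 1 had the fewest, 17960 and 17980, with 19514 or more in the rest. The mitochondrial share of counts moved with genotype, at 4.73% to 8.25% in WT (5.95% to 8.25% in the 8 libraries) and 3.73% to 4.97% in PARP1-KO libraries, and its part in the genotype differences was not tested. The 8 WT libraries were untreated replicates 1 and 3, DMSO replicates 2 and 3, Tpc replicate 2, OL9-119 replicate 2 and Tpc with OL9-119 replicates 1 and 2, and results that rest on them are given with and without them. PARP1 itself was at 737 to 887 counts scaled to the TMM-normalised library total (CPM) in WT and at 30.4 to 46.6 CPM in PARP1-KO libraries, that is 4.33% to 5.24% of the WT mean, with no overlap in any treatment (exact two-sided permutation test, p = 0.0286 in each of 5 treatments, the smallest that 4 against 4 allows). All 6 markers chosen for HEK293 had a median of 1 CPM or more in both genotypes. Of 12 markers of other cell types, VWF, COL1A1 and COL3A1 did so too. The immune markers PTPRC, CD3E, CD68 and LYZ had a median of 0. The summed level of those 12 was 28.1 to 63.3 CPM in WT and 24.3 to 39.0 CPM in PARP1-KO libraries, and their part in the results was not tested. In bulk RNA, fewer cells of one kind and less RNA per cell cannot be told apart.

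The counts are per gene, so transcripts of opposite function from 1 gene, such as the long and short forms of MCL1 and BCL2L1 or the forms of BCL2L11, were summed. In the GENCODE annotation of release 44, exons of 6 of the 10 genes overlapped those of another gene. BAD shared 404 exon bases with GPR137 on the opposite strand, BCL2L1 shared 1735 with ABALON, BCL2L11 shared 727 with MIR4435-2HG and BAK1 shared 91 with GGNBP1. MCL1 shared 328 bases with ADAMTSL4-AS1 on its own strand and 43 with ADAMTSL4 on the other, and BBC3 overlapped 2 microRNA genes. BAK1 also has the processed pseudogenes BAK1P1 on chromosome 20 and BAK1P2 on chromosome 11, whose reads may be split from its own. The strand setting behind the counts is not given in the sources used here.

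Per kilobase of exon, PMAIP1 was the highest of the 10 members in both genotypes, with a mean over 20 libraries of 245 CPM per kb in WT and 423 in PARP1-KO cells. MCL1 was next, at 37.7 and 52.4 CPM per kb. BAD, BAX and BAK1 followed in WT at 34.6, 26.3 and 18.3 CPM per kb. In PARP1-KO cells BBC3, at 17.8 CPM per kb, stood near BAD at 18.5. BCL2 was the lowest member, at 0.895 and 1.08 CPM per kb, and rested on 24 to 256 counts per library, against 2543 to 19768 for PMAIP1. Between the lowest and the highest of the 10 group means, BBC3 spanned 3.06-fold, BAD 2.64-fold, BCL2 2.32-fold, PMAIP1 2.30-fold and MCL1 2.00-fold, while BAX and BAK1 spanned 1.40-fold and 1.47-fold.

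**Figure D1:**
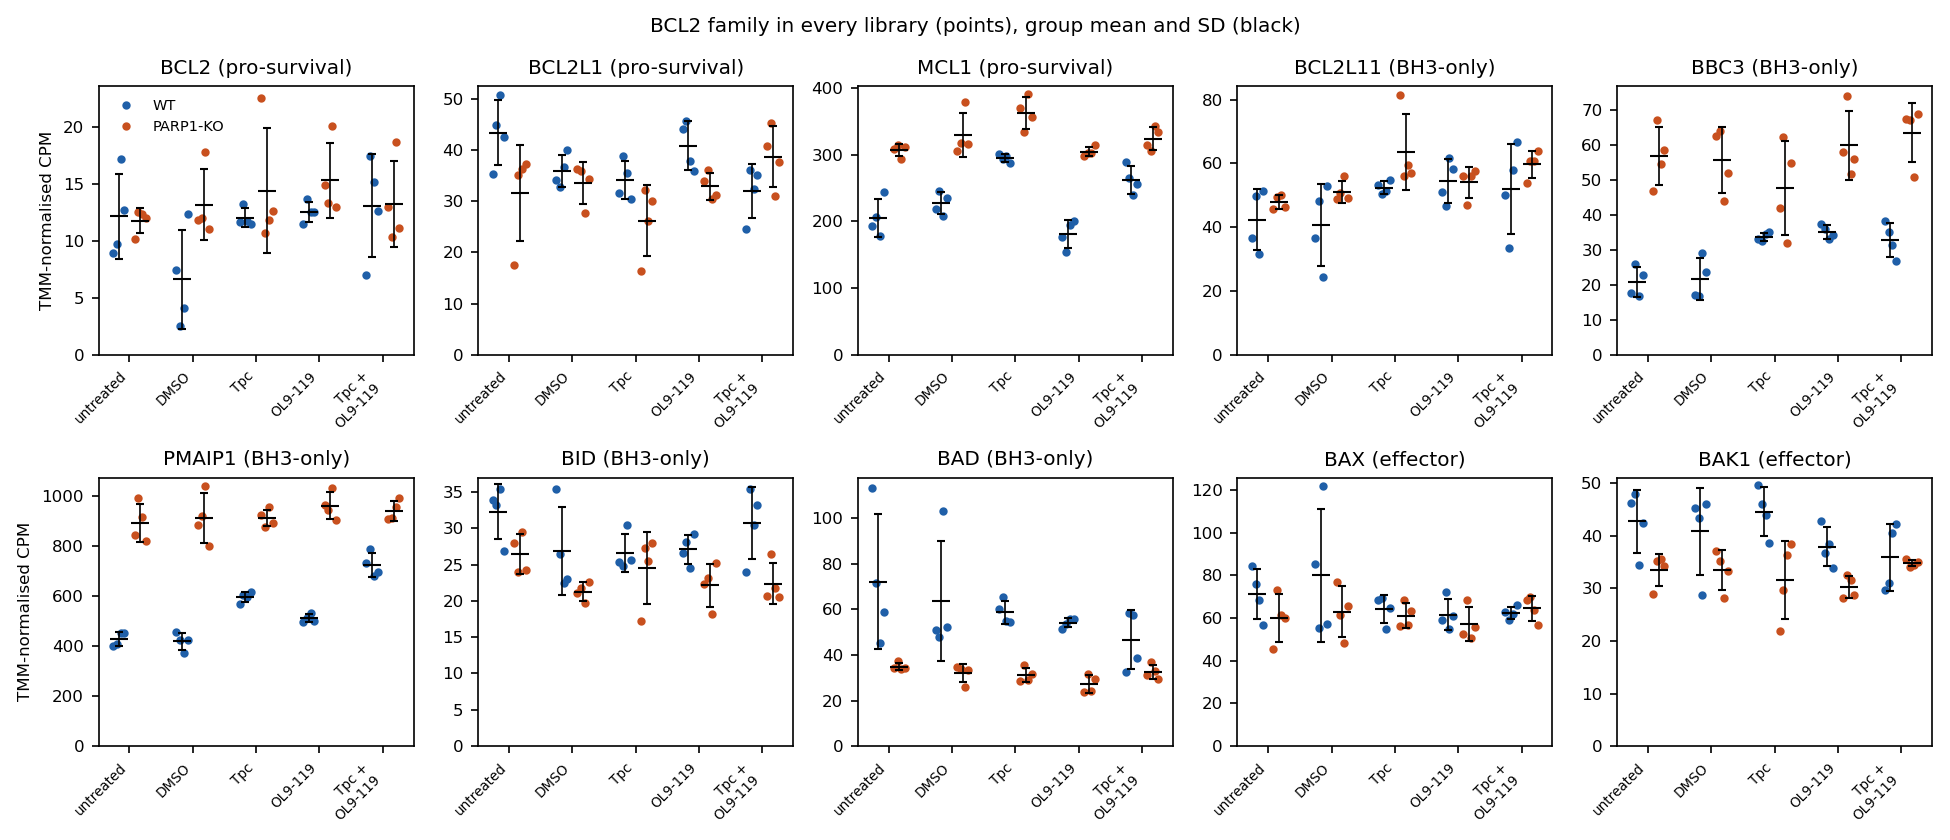
TMM-normalised CPM (vertical axis) of each BCL2 family gene in every library (points; WT blue, PARP1-KO orange) by treatment (horizontal axis), with group means and SDs of 4 libraries in black; each panel has its own scale. PMAIP1 lay between 372 and 789 CPM in WT and between 802 and 1041 CPM in PARP1-KO libraries, without overlap, whereas BAX and BAK1 overlapped in most treatments.

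The comparison of PARP1-KO with WT cells within each treatment asked how the RNA of these genes differed between the knockout clone and its parent. Without treatment, 4 of the 10 members passed the test (adjusted p below 0.01, edgeR) against 11.7% of all genes tested: PMAIP1, BBC3 and MCL1 were higher and BAD was lower. Of all genes 5.97% were higher and 5.74% lower. The same 4 members passed in the same directions with DMSO (background 12.4%) and with OL9-119 (background 9.77%). With Tpc, PMAIP1 and BAD passed (background 8.52%), and with Tpc and OL9-119 together PMAIP1 and BBC3 did (background 7.27%). By direction the background was 6.67% higher and 5.75% lower with DMSO, 4.94% and 4.83% with OL9-119, 4.17% and 4.34% with Tpc, and 3.56% higher with both agents. The CPM of the genotypes did not overlap for 4, 4, 5, 5 and 3 members untreated and with DMSO, Tpc, OL9-119 and the combination, against 19.7%, 20.1%, 19.8%, 23.6% and 18.1% of all genes. The remaining 6 members, among them both effectors, passed in none of the 5 treatments. The median log2 fold change of the 10 members was -0.14 untreated and 0.12 with DMSO, beside 0.17 and 0.19 over all genes. These 5 comparisons share no library with one another.

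**Figure D2:**
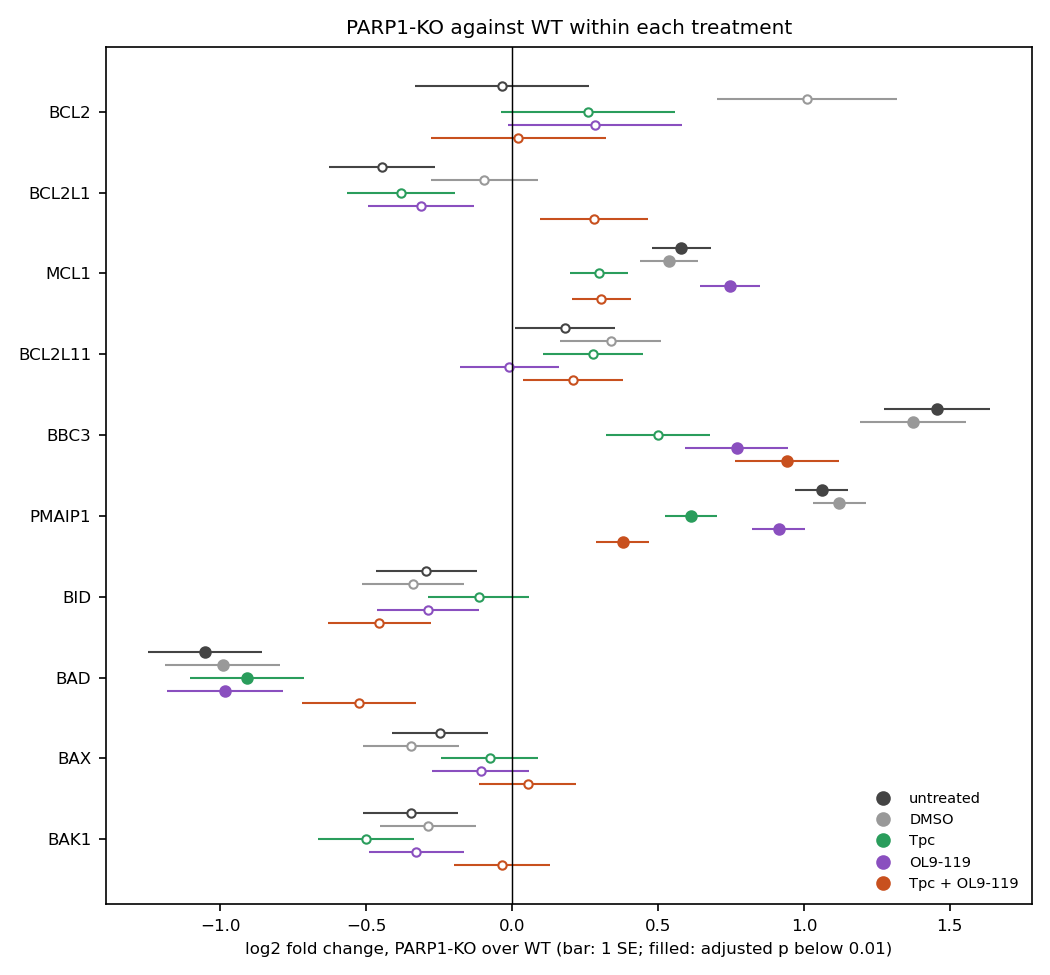
Log2 fold change of PARP1-KO over WT (horizontal axis) for the 10 members (vertical axis) in each of 5 treatments (colours), with bars of 1 SE; filled points passed at an adjusted p below 0.01. PMAIP1 was filled in all 5 treatments, BBC3 and BAD in 4 each and MCL1 in 3.

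MCL1, on chromosome 1 (chr1:150560895-150579738, minus strand, hg38), encodes the pro-survival protein to which the product of PMAIP1 binds, and was the only pro-survival member that passed in a genotype comparison. In untreated cells MCL1 was at 193, 207, 178 and 245 CPM in the 4 WT libraries and at 309, 315, 293 and 312 CPM in the 4 PARP1-KO libraries. With DMSO the values were 219, 246, 209 and 236 CPM in WT and 306, 318, 379 and 317 CPM in PARP1-KO cells. Every PARP1-KO library exceeded every WT library in both settings, with log2 fold changes of 0.58 ± 0.10 (SE, adjusted p = 1.2e-05) and 0.54 ± 0.10 (adjusted p = 4.1e-05). With OL9-119 the WT libraries held 176, 154, 195 and 201 CPM and the PARP1-KO libraries 299, 302, 303 and 315 CPM, a log2 fold change of 0.75 ± 0.10 (adjusted p = 7.8e-08). With Tpc, MCL1 was at 302, 293, 298 and 288 CPM in WT and 371, 334, 391 and 356 CPM in PARP1-KO cells, and with Tpc and OL9-119 at 289, 265, 239 and 256 and 315, 306, 343 and 334 CPM. The genotypes did not overlap here either, but the log2 fold changes of 0.30 ± 0.10 and 0.31 ± 0.10 missed the threshold in edgeR (adjusted p = 0.036 and 0.034). DESeq2 called MCL1 in both of these comparisons at the same threshold. Without the 8 WT libraries of few genes, MCL1 with both agents passed in edgeR as well. The difference with DMSO was lost under length and GC offsets (adjusted p = 0.018) and in a fit of those 8 libraries alone (adjusted p = 0.012).

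In WT cells MCL1 rose with Tpc, by 0.52 ± 0.10 on the log2 scale against untreated cells (adjusted p = 0.00078). All 4 Tpc libraries, at 288 to 302 CPM, lay above the highest untreated library, at 245 CPM. The rise did not pass against DMSO in place of untreated cells (log2 fold change 0.38, adjusted p = 0.029), without the 8 WT libraries of few genes (0.40, adjusted p = 0.023), or in a fit of the 8 libraries compared (adjusted p = 0.037). With Tpc and OL9-119 the log2 fold change was 0.35 ± 0.10 (adjusted p = 0.019), and with OL9-119 alone it was -0.18 ± 0.10 (adjusted p = 0.38). Neither passed against untreated cells in edgeR, although DESeq2 called MCL1 with both agents. The WT libraries with OL9-119 alone, at 154 to 201 CPM, all lay below those with DMSO, at 209 to 246 CPM. Against DMSO the OL9-119 value of MCL1 did not pass either. In PARP1-KO cells the Tpc value was 0.24 ± 0.10 (adjusted p = 0.81), and the difference between the Tpc responses of the genotypes was -0.28 with a 95% interval of -0.56 to -0.00228 (adjusted p = 0.68).

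BCL2L1, which encodes the survival protein BCL-XL, and BCL2, the founding member, showed no change that passed. BCL2L1 ranged from 24.6 to 50.9 CPM in WT and from 16.4 to 45.3 CPM in PARP1-KO libraries. Its genotype log2 fold changes ran from -0.45 ± 0.18 in untreated cells (adjusted p = 0.079) to 0.28 ± 0.18 with Tpc and OL9-119 (adjusted p = 0.32). The lowest BCL2L1 values, 17.6 and 16.4 CPM, were in the PARP1-KO libraries of fewest genes, replicate 1 untreated and with Tpc, and the untreated BCL2L1 log2 fold change was -0.25 without the former. BCL2 ranged from 2.53 to 17.5 CPM in WT and from 10.2 to 22.6 CPM in PARP1-KO libraries. Its largest genotype value was with DMSO, where the WT libraries held 7.46, 2.53, 4.08 and 12.4 CPM and the PARP1-KO libraries 11.8, 12.0, 17.8 and 11.1 CPM. These groups overlapped through 1 WT library, replicate 4 at 12.4 CPM, and the log2 fold change of 1.01 ± 0.31 just missed the threshold (adjusted p = 0.013, and 0.00049 without that library). The low values, replicates 2 and 3, were both among the 8 WT libraries of few genes, and without those 8 the log2 fold change of BCL2 was 0.43 ± 0.26 (adjusted p = 0.27). In the other 4 treatments the BCL2 values lay between -0.04 and 0.29, each with an adjusted p of 0.59 or more.

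PMAIP1 encodes NOXA, a BH3-only protein that binds MCL1 and promotes its degradation, and lies on chromosome 18 (chr18:59899996-59904305, plus strand, hg38). It was higher in PARP1-KO cells in all 5 treatments. In untreated cells PMAIP1 was at 399.5, 409, 451 and 452 CPM in WT and at 842, 993, 914 and 821 CPM in PARP1-KO libraries. With DMSO it was at 456, 423, 372 and 425 CPM in WT and 884, 919, 1041 and 802 CPM in PARP1-KO libraries. The log2 fold changes were 1.06 ± 0.090 (adjusted p = 6.7e-14) and 1.12 ± 0.090 (adjusted p = 5.9e-15), that is 2.09-fold and 2.17-fold. With Tpc the values were 569.5, 603, 597 and 615 CPM in WT and 923, 878, 955 and 894 CPM in PARP1-KO cells. With OL9-119 they were 495, 513, 532 and 502 CPM and 965, 945, 1034 and 904 CPM, and with both agents 731, 789, 679 and 698 CPM and 906, 913, 957 and 991 CPM. No PARP1-KO library fell within the range of the WT libraries of its treatment, and the distance was smallest with both agents. The log2 fold changes were 0.91 ± 0.090 with OL9-119 (adjusted p = 1.1e-11), 0.61 ± 0.090 with Tpc (adjusted p = 5.9e-07) and 0.38 ± 0.089 with both (adjusted p = 0.0019). With both agents the call was lost without WT replicate 3 or PARP1-KO replicate 4 (adjusted p = 0.011 in each fit). Length and GC offsets ended the calls with Tpc and with both agents (adjusted p = 0.018 and 0.19).

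In WT cells PMAIP1 stood at group means of 428 ± 27.8 CPM untreated, 419 ± 34.6 with DMSO, 511 ± 16.1 with OL9-119, 596 ± 19.4 with Tpc and 724 ± 48.1 with both (SD, n = 4). The untreated and DMSO groups overlapped, while the OL9-119, Tpc and combined groups each lay wholly above the group before it. Against untreated cells PMAIP1 rose with Tpc by 0.48 ± 0.090 (adjusted p = 0.00049) and with both agents by 0.76 ± 0.090 on the log2 scale (adjusted p = 8.5e-09). The OL9-119 value of 0.25 ± 0.090 did not pass (adjusted p = 0.12), nor did the step from Tpc to both agents, 0.28 ± 0.090 (adjusted p = 0.22). The departure of the combined effect from the sum of the single effects was taken with DMSO, not untreated cells, as the baseline. It was -0.00446 on the log2 scale, with a 95% interval of -0.25 to 0.24. Against DMSO the rises with Tpc and with both agents passed as well (adjusted p = 0.00014 and 2.3e-09). The Tpc rise did not pass in a fit of its 8 libraries alone (adjusted p = 0.046).

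In PARP1-KO cells the 5 group means of PMAIP1 lay between 893 and 962 CPM, and every pair of groups overlapped. The log2 fold changes against untreated PARP1-KO cells were 0.03 ± 0.089 with Tpc, 0.11 ± 0.089 with OL9-119 and 0.08 ± 0.089 with both, none of which passed. The response to Tpc with OL9-119 was smaller in PARP1-KO than in WT cells, with a difference (PARP1-KO minus WT) of -0.68 ± 0.13 on the log2 scale (adjusted p = 0.00087). PMAIP1 was the 1 member of 10 to pass this test, against 0.27% of all genes (0.201% lower), and it passed in all 16 fits that left out 1 library (adjusted p from 0.00085 to 0.0068) and without the 8 WT libraries of few genes (adjusted p = 0.0049). For Tpc alone the difference was -0.45 ± 0.13 (adjusted p = 0.28) and for OL9-119 alone -0.15 ± 0.13 (adjusted p = 0.87). The untreated PARP1-KO cells were already above every treated WT library, and the lower Tpc dose in PARP1-KO cells cannot be told apart from the genotype in the responses that include Tpc.

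The bases before the RefSeq start sites of the members (GRCh38.p14, which matched hg38 for all 15 member promoters) were searched on both strands for motifs, and the pair of members with the largest rises in PARP1-KO cells is shown. Letters in capitals mark the core of the cyclic AMP response element, to which ATF and CREB factors bind (TGACGT, read here from the other strand), in PMAIP1, at -56 to -51 from its start site, and the AP-1 motif, to which JUN and FOS factors bind (TGANTCA), in BBC3, at -113 to -107. PMAIP1 is given at chr18:59899746-59899995 on the plus strand, and BBC3 at chr19:47232767-47232917 on the minus strand, which leaves out bases that lie in exons of the annotation.
PMAIP1: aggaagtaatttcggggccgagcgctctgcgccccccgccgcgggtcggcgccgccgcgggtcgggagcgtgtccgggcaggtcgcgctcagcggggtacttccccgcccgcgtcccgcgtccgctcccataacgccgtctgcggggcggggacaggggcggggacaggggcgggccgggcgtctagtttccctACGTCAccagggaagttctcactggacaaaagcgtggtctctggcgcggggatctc
BBC3: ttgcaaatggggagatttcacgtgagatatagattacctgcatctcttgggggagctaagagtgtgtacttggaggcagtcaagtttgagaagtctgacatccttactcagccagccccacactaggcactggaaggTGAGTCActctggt
The core of the cyclic AMP response element was in 7.1% and the AP-1 motif in 6.57% of 35114 promoters of 250 bases. Among the members the former was also in both promoters of BAD, which was lower in PARP1-KO cells, and the latter was in BBC3 alone. The E-box CACGTG occurred 4 times in the promoter of BAX, also in those of BBC3 and BID, and in 6.35% of all promoters. The GC box GGGCGG was in 42.6% of all promoters, with 4 copies in that of PMAIP1. It had up to 4 copies in promoters of BID, 3 in that of BCL2L11, and fewer in BAK1, BAD and BAX. Neither the ATF4-C/EBP composite TGATGNAA (3.14% of promoters) nor the NF-kappa B motif (5.21%) was in any of the member promoters. The half-site of p53 was in 5.57% of all promoters and, among the members, in BAK1 alone, at -73 to -64. MCL1 had no entry in the promoter table. These are matches of letters and say nothing of binding.

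BBC3 encodes PUMA, a BH3-only protein that binds all pro-survival members, and lies on chromosome 19 (chr19:47220822-47232766, minus strand). It had the largest genotype difference of any member in untreated cells and with DMSO. In untreated cells BBC3 was at 17.6, 26.02, 16.8 and 22.9 CPM in WT and 47.0, 67.3, 54.7 and 58.7 CPM in PARP1-KO libraries. With DMSO it was at 17.1, 16.7, 29.1 and 23.6 CPM in WT and 62.8, 64.1, 44.1 and 52.0 CPM in PARP1-KO libraries. The genotypes stood well apart, with log2 fold changes of 1.46 ± 0.18 (adjusted p = 6.9e-09) and 1.37 ± 0.18 (adjusted p = 3e-08), or 2.74-fold and 2.59-fold. With OL9-119 the values were 37.5, 35.9, 33.1 and 34.3 CPM in WT and 58.0, 74.1, 51.7 and 56.1 CPM in PARP1-KO cells. With both agents they were 38.2, 35.1, 31.5 and 26.9 CPM and 67.5, 67.2, 51.1 and 68.9 CPM. These groups were also apart, at 0.77 ± 0.18 (adjusted p = 0.00092, and 0.012 without PARP1-KO replicate 2) and 0.94 ± 0.18 (adjusted p = 0.0001). With Tpc the WT libraries held 33.2, 32.4, 34.5 and 35.1 CPM and the PARP1-KO libraries 41.9, 62.3, 31.9 and 54.9 CPM, where replicate 3 fell below every WT library and the log2 fold change of 0.50 ± 0.18 did not pass (adjusted p = 0.047).

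In WT cells the 4 libraries of each treatment with an agent lay above all 4 untreated libraries for BBC3, at means of 33.8 ± 1.20 CPM with Tpc, 35.2 ± 1.91 with OL9-119 and 32.9 ± 4.86 with both, against 20.8 ± 4.38 untreated. The 3 treated groups overlapped one another. With OL9-119 BBC3 rose by 0.76 ± 0.18 on the log2 scale (adjusted p = 0.0077), the 1 member to pass against 0.449% of all genes. This call was lost in 6 of 8 fits that left out 1 library (adjusted p up to 0.061), without the 8 WT libraries of few genes (0.52, adjusted p = 0.21) and against DMSO (0.71, adjusted p = 0.017). The values with Tpc and with both agents, 0.70 ± 0.18 and 0.67 ± 0.18, did not pass (adjusted p = 0.023 and 0.011). In PARP1-KO cells the corresponding values were 0.07 ± 0.17 with OL9-119, -0.26 ± 0.17 with Tpc and 0.16 ± 0.17 with both. The difference between genotypes in the Tpc response was -0.96 with a 95% interval of -1.45 to -0.46, and it did not pass over all genes (adjusted p = 0.17).

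BAD encodes a BH3-only protein held inactive by phosphorylation under growth factor signalling, and it was the 1 member that passed as lower in PARP1-KO cells. In untreated cells BAD was at 113, 71.7, 45.1 and 58.7 CPM in WT and 34.2, 37.3, 33.6 and 34.3 CPM in PARP1-KO libraries. With DMSO it was at 51.2, 48.0, 103.3 and 52.4 CPM and 34.9, 33.7, 26.04 and 33.4 CPM. The WT libraries were uneven, with 1 high library in each group, but none overlapped with the PARP1-KO libraries, and BAD fell by 1.05 and 0.99 on the log2 scale (adjusted p = 3.6e-05 and 9.5e-05). The high libraries, untreated replicate 1 and DMSO replicate 3, were both among the 8 WT libraries of few genes. Without those 8 the log2 fold changes were -0.91 (adjusted p = 9.8e-07) and -0.71 (adjusted p = 0.00014). With Tpc the values were 60.0, 65.3, 54.8 and 54.5 CPM in WT and 28.8, 35.6, 28.97 and 31.7 CPM in PARP1-KO cells, and with OL9-119 51.4, 53.8, 55.9 and 55.8 CPM and 23.9, 31.7, 24.2 and 29.5 CPM. Here too the genotypes were apart, with log2 fold changes of -0.91 ± 0.20 (adjusted p = 0.00051) and -0.98 ± 0.20 (adjusted p = 0.00015). With both agents the WT libraries held 32.7, 58.3, 57.4 and 38.7 CPM and the PARP1-KO libraries 31.1, 36.8, 33.2 and 29.3 CPM, which overlapped, and the value of -0.52 ± 0.20 did not pass (adjusted p = 0.069, but 0.0048 without the 8 libraries).

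BAD lies on chromosome 11 (chr11:64269830-64284704, minus strand), and its neighbours were lower in PARP1-KO cells as well. Within 2 Mb of BAD, 53 of 183 tested genes passed as lower and 4 as higher with DMSO, and their median log2 fold change was -0.54 against 0.19 over all genes with a position. In untreated cells 62 of them passed as lower and 3 as higher, with a median of -0.59. Over the whole of chromosome 11 the median was -0.28 with DMSO, with 279 of 1499 genes lower. Among the 178 genes within 5 Mb of BAD with a mean of 50 counts or more, 163 had a value below 0 and 38 lay below BAD itself. BAD thus lay below the median of its surroundings, which was itself below that of all genes. Around the 9 other members the median over the 2 Mb window ran from -0.01 to 0.67 with DMSO, and no window held more than 10 genes called lower. The highest of these medians was that around PMAIP1, over 33 genes, of which 1 passed as higher and 2 as lower. Around BBC3 the median was 0.35, with 17 of 164 genes passing as higher and 5 as lower, where 6.67% of all genes tested were higher. Over the whole of chromosome 19, which holds BBC3 and BAX, the median with DMSO was 0.44. Of its 1871 genes other than BBC3, 237 passed as higher and 38 as lower. The part of this shift in the BBC3 difference was not tested. Whether copy number differs between the clone and its parent was not tested.

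**Figure D3:**
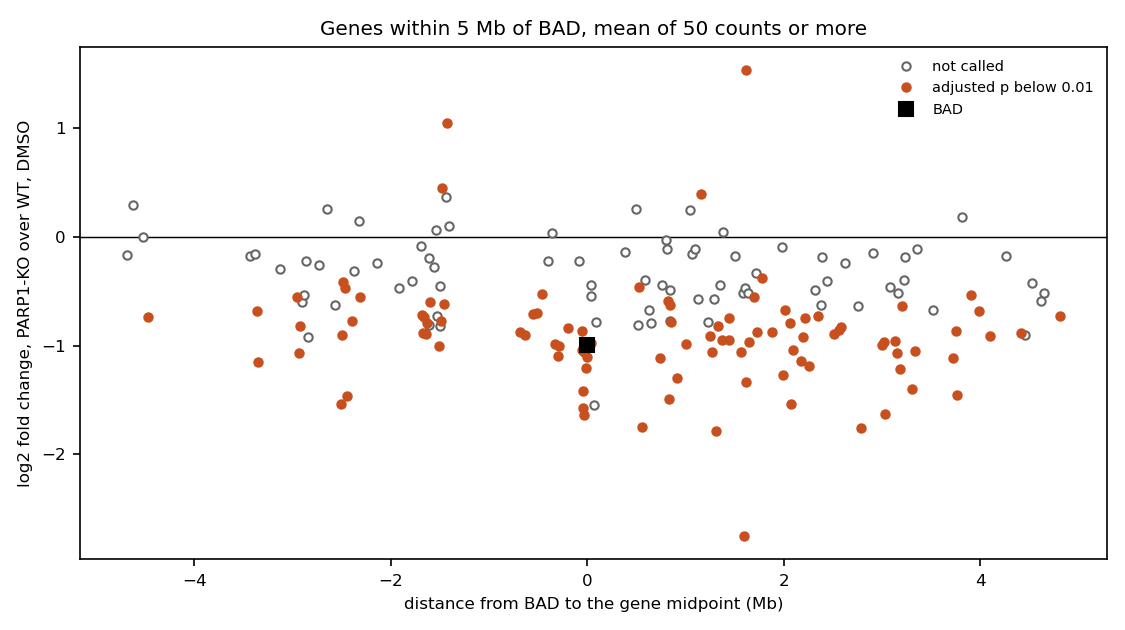
Log2 fold change of PARP1-KO over WT with DMSO (vertical axis) for BAD (black square) and 178 genes within 5 Mb (points), against the distance of each gene's midpoint from that of BAD (horizontal axis); filled points passed at an adjusted p below 0.01. Most points lie below 0: 95 passed as lower and 4 as higher.

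BID, which carries the signal of death receptors to the mitochondrion once cut by caspase 8, and BCL2L11, which encodes BIM, an activator of the effectors, passed in no comparison. BID ranged from 22.4 to 35.5 CPM in WT and from 17.2 to 29.5 CPM in PARP1-KO libraries. Its genotype log2 fold changes were all below 0, from -0.45 ± 0.18 with both agents (adjusted p = 0.079) to -0.11 ± 0.17 with Tpc (adjusted p = 0.74). BCL2L11 ranged from 24.3 to 66.7 CPM in WT and from 45.6 to 81.5 CPM in PARP1-KO libraries. Of the 5 lowest BCL2L11 values, 4 came from the 8 WT libraries of few genes, with the lowest in DMSO replicate 3. Its genotype values ran from -0.01 ± 0.17 with OL9-119 to 0.34 ± 0.17 with DMSO (adjusted p = 0.16). With each agent its value against untreated cells was above 0 in both genotypes, between 0.17 and 0.41, and none passed. The highest was with Tpc in PARP1-KO cells, where the 4 libraries at 81.5, 56.1, 59.6 and 57.1 CPM lay above the untreated ones at 45.6, 49.5, 50.1 and 46.4 CPM (0.41, adjusted p = 0.81, and 0.25 without replicate 1, the highest).

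The effectors BAX and BAK1, whose proteins make the pores, passed in no comparison either. BAX ranged from 54.7 to 122.02 CPM in WT and from 45.5 to 76.8 CPM in PARP1-KO libraries, and its highest value came from WT with DMSO replicate 3, where BAD was also high. The genotype log2 fold changes of BAX ran from -0.35 ± 0.17 with DMSO (adjusted p = 0.13) to 0.05 ± 0.17 with both agents. BAK1 ranged from 28.6 to 49.7 CPM in WT and from 21.9 to 38.4 CPM in PARP1-KO libraries. With Tpc the WT libraries of BAK1 held 49.7, 46.1, 43.9 and 38.6 CPM and the PARP1-KO libraries 21.9, 29.7, 36.3 and 38.4 CPM. Those groups did not overlap, and the log2 fold change of -0.50 ± 0.16 missed the threshold (adjusted p = 0.029), although it passed without the 8 WT libraries of few genes (adjusted p = 0.0039), and it was -0.38 (adjusted p = 0.16) without PARP1-KO replicate 1, the lowest. In the other 4 treatments the BAK1 values lay between -0.35 and -0.03.

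The response of the members to each treatment was taken against the untreated cells of the same genotype, a shared control, so these comparisons are not independent. In WT cells 2 of 10 members passed with Tpc (MCL1 and PMAIP1, background 0.857%), 1 with OL9-119 (BBC3, background 1.28%) and 1 with both (PMAIP1, background 4.07%), all higher. Of all genes 0.553%, 0.449% and 2.07% were higher in these 3 comparisons. The groups did not overlap for 3, 2 and 2 members, against 5.68%, 5.86% and 7.76% of all genes. The median log2 fold change of the 10 members was 0.03 with Tpc, -0.13 with OL9-119 and 0.01 with both, against 0.00 over all genes in each. From Tpc to both agents no member passed (background 0.18%), and the groups did not overlap for 1 member (background 4.48%). With DMSO alone no member passed in WT and 0.0% of all genes did by edgeR (3116 genes at an unadjusted p below 0.05, and 9 called by DESeq2), and the groups overlapped for all 10 members (1.15% of all genes without overlap). In PARP1-KO cells no member passed with DMSO (0 of all genes by edgeR, 538 at an unadjusted p below 0.05 and 0 by DESeq2), with Tpc (background 0.0138%), with OL9-119 (background 0.00346%), with both (0 of all genes by edgeR, 1241 at an unadjusted p below 0.05 and 1 by DESeq2), or from Tpc to both (0 of all genes, 1186 and 1). In those 5 comparisons 0, 2, 0, 0 and 2 members had an unadjusted p below 0.05, and the groups did not overlap for 1, 2, 2, 1 and 0 members, against 1.78%, 5.14%, 3.92%, 3.93% and 2.06% of all genes. No member passed for the difference between genotypes in the Tpc response (background 0.1%) or the OL9-119 response (background 0.0657%). None passed for a departure from additivity in WT, taken with DMSO as the baseline (background 0.00346%). DESeq2 called no member in any of these.

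**Figure D4:**
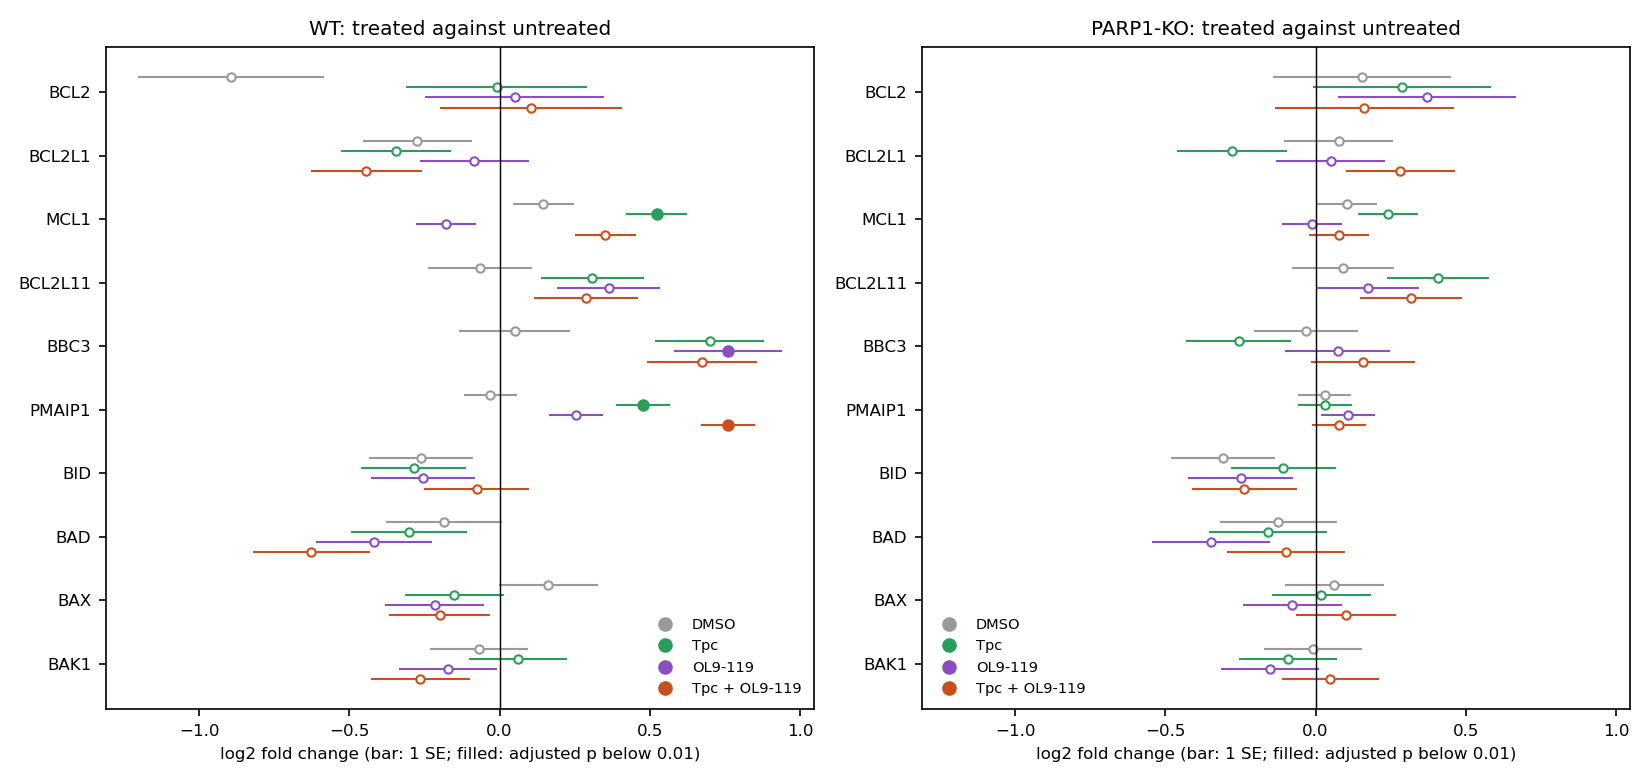
Log2 fold change of each treatment over untreated cells (horizontal axis) for the 10 members (vertical axis) in WT (left) and PARP1-KO cells (right), with bars of 1 SE; filled points passed at an adjusted p below 0.01. The 4 filled points are MCL1 and PMAIP1 with Tpc, BBC3 with OL9-119 and PMAIP1 with both agents, all in WT.

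As a measure of the balance between roles, the CPM per kb of exon was summed over each role and set against the sum of all 10 members in the same library, as a description without a test. The BH3-only members held 73.9 ± 1.02% of the sum in untreated WT cells (SD, n = 4) and 82.7 ± 1.01% in untreated PARP1-KO cells. In WT the share was 76.5 ± 1.13% with Tpc, 78.2 ± 0.629% with OL9-119 and 80.8 ± 1.22% with both. In PARP1-KO cells all 5 group means lay between 81.8% and 83.9%. Most of this was PMAIP1, with 56.1 ± 4.91% of the sum in untreated WT and 73.4 ± 1.28% in untreated PARP1-KO cells. Without PMAIP1 the BH3-only sum was 62.4 ± 17.2 CPM per kb in untreated WT and 51.4 ± 3.25 in untreated PARP1-KO cells, which overlapped, with BBC3 higher and BAD lower. The pro-survival sum was 44.4 ± 4.49 and 57.9 ± 2.58 CPM per kb and did not overlap, and the effector sum was 46.9 ± 6.28 and 38.4 ± 5.61, which did. Within the pro-survival sum only MCL1 was higher in untreated PARP1-KO cells, at 33.1 in WT and 49.4 CPM per kb in PARP1-KO cells. BCL2L1 was at 10.4 and 7.53 and BCL2 at 0.963 and 0.934 CPM per kb. PMAIP1 stood at 5.998 ± 0.853 times the level of MCL1 per kb in untreated WT, 5.75 ± 0.299 times with Tpc, 8.08 ± 1.000 times with OL9-119 and 7.88 ± 0.530 times with both. In untreated PARP1-KO cells it was 8.27 ± 0.759 times. The ratio with Tpc in WT overlapped that of untreated WT, with both genes higher there. With coding length in place of exon length the pro-survival share over all libraries was 13.2% in place of 11.4% and the effector share 5.91% in place of 9.14%.

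**Figure D5:**
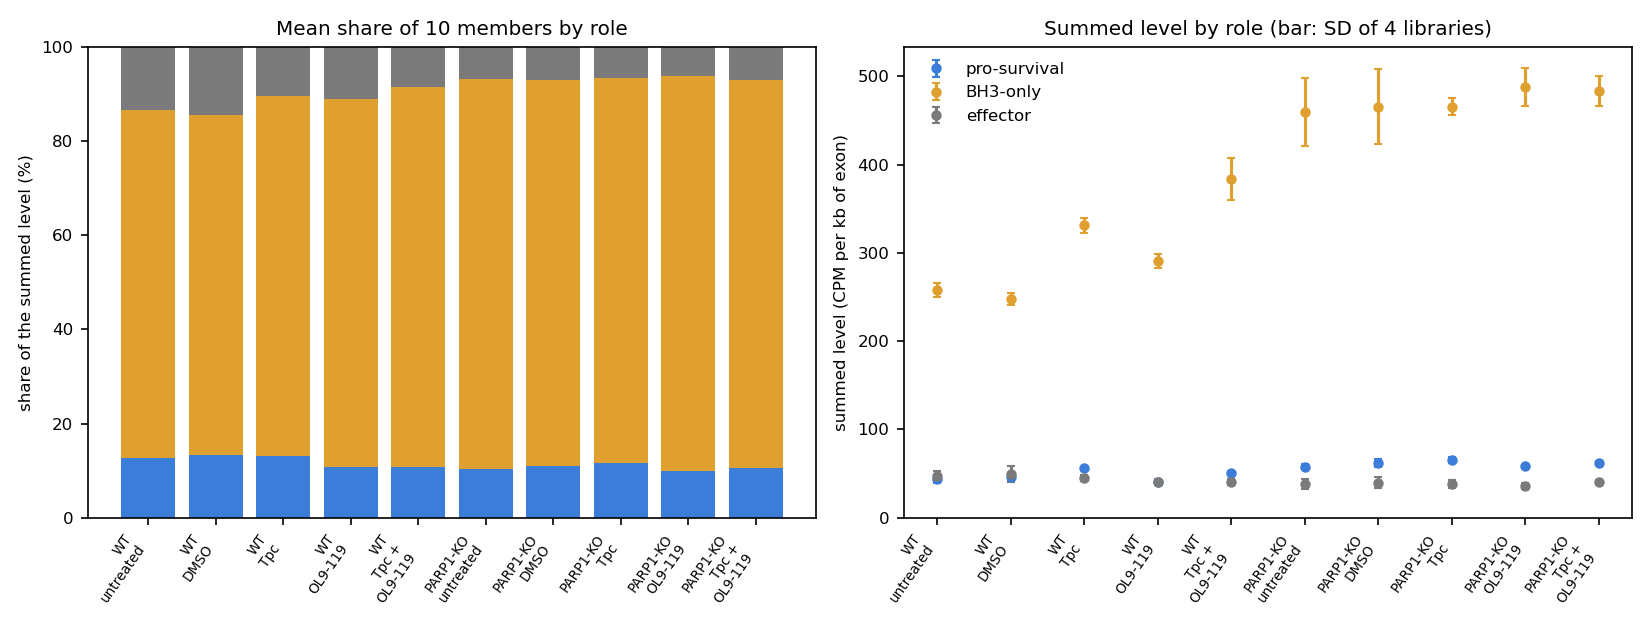
Left, mean share (%) of the summed CPM per kb of the 10 members held by each role in the 10 groups; right, the summed CPM per kb of exon by role, with the SD of 4 libraries. The BH3-only sum was 258 CPM per kb in untreated WT and 459.7 in untreated PARP1-KO cells, while the effector sum stayed between 35.7 and 49.4 in all groups.

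Other genes of the pathway were taken from lists that were drawn up with earlier results of these data known. Of 15 transcription factors known to act on family members, 5 were higher and 0 lower in untreated PARP1-KO cells, with a median log2 fold change of 0.29. JUN, a subunit of AP-1, rose by 1.36 ± 0.12 (adjusted p = 8.4e-13) and DDIT3, which encodes the stress factor CHOP, by 1.86 ± 0.18 (adjusted p = 1.3e-11). Of 17 genes listed for the mitochondrial pathway, from cytochrome c to caspases and their inhibitors, 0 were higher and 5 lower. Among the latter were VDAC3, a channel of the outer membrane (-0.87 ± 0.13), and BIRC5, which encodes survivin (-0.83 ± 0.13). Of 11 death receptor genes 1 was higher and 4 lower, the latter with the adaptor FADD, itself on chromosome 11 (-1.01 ± 0.15). Of 13 further family members 2 were higher and 1 lower, and of 8 genes for turnover of MCL1 and BH3 proteins 1 was higher, TRIB3 (1.00 ± 0.13), a pseudokinase induced by ATF4 and CHOP. The background of 11.7% holds for these counts.

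In WT cells 5 of the 15 factors were higher with Tpc, 2 with OL9-119 and 7 with both, and none was lower, where 0.857%, 1.28% and 4.07% of all genes passed. With Tpc, JUN rose by 1.35 ± 0.12 and RELB, a subunit of NF-kappa B, by 1.76 ± 0.18, while BIRC5 fell by 0.94 and BIRC3, an inhibitor of apoptosis induced by NF-kappa B, rose by 1.42 ± 0.26. Of the 17 mitochondrial pathway genes 2 were higher and 1 lower with Tpc, 0 and 3 with OL9-119, and 2 and 2 with both, beside the same shares of all genes. With OL9-119, DDIT3 rose by 2.16 ± 0.19 and TRIB3 by 1.37 ± 0.14, and both of them also rose from Tpc to both agents, by 1.30 ± 0.18 and 1.01 ± 0.14. With both agents JUN rose by 1.38 ± 0.12, DDIT3 by 1.72 ± 0.19 and BIRC3 by 1.80 ± 0.26, and 1 further family member, BCL2L12, was lower at -0.83 ± 0.21 (adjusted p = 0.0058). In PARP1-KO cells no gene of these lists passed with any agent. The response to both agents was smaller in PARP1-KO cells for NFKB1 (-1.51 ± 0.23), BIRC3 (-2.24 ± 0.37) and DDIT3 (-1.51 ± 0.25), as it was for PMAIP1. With both agents 0 of the 15 factors were higher and 4 lower in PARP1-KO than in WT cells, against 7.27% of all genes called, among them NFKB1 (-1.76 ± 0.17).

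Across the 10 group means of log2 CPM, the genes most like PMAIP1 among 12161 genes with a mean of 50 counts or more were ZNF473 (r = 0.995) and PRDM4 (r = 0.993). Those most like BBC3 were XAB2 (r = 0.989) and WDR17 (r = 0.987), those most like MCL1 were CLSPN (r = 0.984) and ZNF221 (r = 0.979), and those most like BAD were IRAK1 (r = 0.994) and GUK1 (r = 0.994). Among the members, r was 0.944 between PMAIP1 and BBC3, 0.859 between PMAIP1 and MCL1 and -0.957 between PMAIP1 and BAD. These values describe 10 points of which 5 share each genotype, so that any gene that differs between the genotypes scores high.

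Library names in the labels begin with L01, L02 or L03, whose meaning is not stated. Within these prefixes the KO-minus-WT difference of log2 CPM, averaged over the treatments that had both genotypes, was 0.83, 0.84 and 0.73 for PMAIP1, 1.05, 0.85 and 0.89 for BBC3, 0.47, 0.56 and 0.47 for MCL1 and -0.86, -0.94 and -0.87 for BAD. All 10 members had 1 sign under all 3 prefixes, so this does not set the 4 apart, and BAD under L01 reached 0.049 in 1 treatment.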

How the data were processed

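The data were RNA-seq of poly(A) RNA from 40 libraries of HEK293A cells, 4 in each of 10 groups defined by genotype and treatment in the labels. The authors checked reads with FastQC 0.11.9 and Picard 2.26.6 and aligned them to hg38 with STAR 2.7.8 (tools as listed in the submitters' notes), and they deposited raw counts per Ensembl gene, which were used as they stand, with 0 columns of other samples. Symbols came from GENCODE release 44, which matched 57754 of 58395 genes.

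Genes with at least 10 counts in sum were kept, libraries were scaled by TMM, and 1 quasi-likelihood model over all 40 libraries (edgeR 4.0.16 in R 4.3.3) gave 19 comparisons, with Benjamini-Hochberg adjustment over all 28922 genes and a threshold of 0.01. DESeq2 1.42.0 was an alternative. The model was tested on simulated data before use. Levels per length used the union of exons. Exact permutation tests were used only for PARP1, as a check of the labels. Levels per library, role shares and the surroundings of each member were described without a test.

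All 10 members were named in every comparison. Other genes were named as the 2 called genes of smallest adjusted p per list with a mean of 50 counts, at most 6 per comparison, and for likeness as the 2 genes of highest r. FADD's chromosome and the motifs were looked up after the values and promoters were seen. The members and lists were chosen with earlier results of these data known. The counts of members range from 24 to 19768 per library. Precision is set by the spread between libraries, to which counting error adds where counts are low. That holds most for BCL2, and also for members such as BBC3, BCL2L1 and BID, with as few as 98, 112 and 121 counts in a library. Results that need an item withheld from the text are not reported here.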

Additional observations from a re-analysis of the deposited data

Results flagged for a closer look

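Within the groups of 4 libraries, 12 of 100 member-by-group sets held 1 library whose gap to the nearest of the others took up more of the group's range than Dixon's 95% critical value allows, where chance gives about 1 in 20. In WT cells, BAD in DMSO replicate 3 was at 103.3 CPM against 48.0 to 52.4 in the other libraries, and BAK1 in the same library was at 28.6 against 43.4 to 46.0, a library of few genes. BCL2 in Tpc replicate 2 was at 13.2 against 11.5 to 11.8, and BID in Tpc replicate 3 at 30.5 against 24.8 to 25.7 CPM. In PARP1-KO cells with DMSO, replicate 3 was high for MCL1 (379 against 306 to 318 CPM) and BCL2 (17.8 against 11.1 to 12.0) and low for BAD (26.04 against 33.4 to 34.9). In PARP1-KO cells with Tpc, replicate 1 was high for BCL2 (22.6 against 10.7 to 12.6 CPM) and BCL2L11 (81.5 against 56.1 to 59.6). BCL2L1 in untreated PARP1-KO replicate 1 was at 17.6 against 35.2 to 37.4 CPM. BCL2L11 in PARP1-KO with OL9-119 replicate 2 was at 46.9 against 55.9 to 57.5 CPM, and BBC3 in PARP1-KO with both agents replicate 3 at 51.1 against 67.2 to 68.9 CPM.

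The response of PMAIP1 to Tpc with OL9-119 differed between the genotypes by a tested difference of -0.68 on the log2 scale (PARP1-KO minus WT, adjusted p = 0.00087, edgeR), with the Tpc dose also differing between them.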

How the results depend on the processing

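Of 21 calls among the members over all 19 comparisons, 21 were kept with DESeq2 (5 gained), with DESeq2-type size factors in edgeR (RLE, 1 gained), with filterByExpr (18230 genes, 1 gained), without a filter (37543 genes, 4 gained), at an adjusted p below 0.05 (9 gained) and with the library name prefix as covariate (0 gained). Library complexity as covariate kept 20, length and GC offsets kept 18, fits of only the libraries compared kept 17, and DMSO in place of untreated cells kept 3 of 5. Without the 8 WT libraries of low complexity, an alternative chosen after seeing the data, 19 were kept and 3 gained. No call changed sign, and the causes of lost or gained calls were not tested. Members called for PARP1-KO against WT with Tpc rose from 2 to 5 at an adjusted p below 0.05, and with Tpc and OL9-119 from 2 to 4 without the 8 libraries. In WT with Tpc, 2 members became 1 against DMSO, 1 without the 8 libraries and 0 with only the libraries compared. In WT with OL9-119, 1 became 0 in each of these settings and with the complexity covariate. In WT with both agents, 1 became 2 with RLE, filterByExpr, and length and GC offsets, 3 with DESeq2, the complexity covariate and no filter, and 4 at an adjusted p below 0.05. The role shares with coding length were 13.2% for pro-survival and 5.91% for effector members. When 1 library was left out, the members called were 4 (untreated), 4 to 5 (DMSO), 2 (Tpc), 3 to 4 (OL9-119) and 1 to 2 (both agents) between genotypes. In WT they were 2 to 3 with Tpc, 0 to 1 with OL9-119 and 1 to 2 with both agents, and the difference of the combined response stayed at 1. MCL1 passed with both agents in WT without untreated replicate 4 (adjusted p = 0.0026), BAD without untreated replicate 3 (0.0052), BBC3 without untreated replicate 2 or combined replicate 4 (0.0052 to 0.0091), and BBC3 with Tpc without untreated replicate 2 (0.0099), all in edgeR. The role shares ranged over 11.3% to 11.5%, 79.3% to 79.7% and 8.93% to 9.24%.

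With the replicate number as a block, WT cells with both agents had 2 members called in place of 1, the gain being BBC3, and no other call changed. The numbers were not taken to pair the samples, since the correlation of same-numbered libraries did not exceed 0.1 in every pair of any comparison. This is a strict rule. The mean of same-numbered pairs ran from -0.07 for PARP1-KO against WT with DMSO to 0.17 for DMSO against untreated WT. Libraries of different number had means of 0.02 and -0.05 there. The highest single pair, in the latter comparison, was at 0.50. Depth limits BCL2 most, which had as few as 24 counts in a library. Single-clone genotype, unequal Tpc dose, summed isoforms and replicates of unclear kind limit all results.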
